A study of Mus musculus with 15 samples.

Results

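The genes described here are 51 splicing factor genes, chosen by 4 symbol prefixes among the protein-coding rows that both expression tables of the series list. They comprise 11 Srsf, 20 Hnrnp, 9 Sf3 and 11 Snrp genes out of 15869 genes shared by the tables. A gene reached the tables by passing the filter of the authors on low values, and no row with these prefixes was found in 1 table alone. RNA was sequenced from malignant splenic B-cells of mice on a C57Bl/6 background after 24 h in culture with vehicle (DMSO) or with 5 μM ibrutinib, an inhibitor of Bruton tyrosine kinase. Eμ-TCL1 mice express the human TCL1 oncogene from an immunoglobulin enhancer in B-cells and serve as a model of chronic lymphocytic leukemia, and Eμ-TCL1;p53R172H/+ mice carry in addition 1 Trp53 allele with the R172H mutation. All libraries therefore share the TCL1 transgene. The vehicle table holds 3 Eμ-TCL1 libraries (replicates 2, 3 and 4) and 5 Eμ-TCL1;p53R172H/+ libraries (replicates 1 to 5). The ibrutinib table holds 3 Eμ-TCL1 libraries (replicates 1, 3 and 4) and 4 Eμ-TCL1;p53R172H/+ libraries (replicates 1, 3, 4 and 5). The labels give no age for the mice.

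Introns are removed from pre-mRNA by the spliceosome, which assembles anew on each intron from small nuclear ribonucleoproteins (snRNPs). The Snrp genes encode the Sm proteins that form a ring on the small nuclear RNAs, together with proteins particular to the U1 and U2 particles. The Sf3 genes encode the SF3A and SF3B complexes, which belong to the U2 particle and hold it at the branch point. SR proteins (Srsf) bind exonic enhancers and favour exon inclusion, whereas heterogeneous nuclear ribonucleoproteins (Hnrnp) coat pre-mRNA and often favour skipping. Several SR protein genes are known to limit their own output by splicing a premature stop codon into their transcripts, which nonsense-mediated decay then degrades. SF3B1 is recurrently mutated in human chronic lymphocytic leukemia.

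All values are read counts that the authors scaled to CPM of an effective library size (normalized CPM), so the sequencing depth is unknown. The scaling was set separately in each table, and genotypes are therefore compared within a table. The libraries differed in their cells before any gene was compared. Lists of 10 markers each of B-cells, T-cells and myeloid cells were summed. Eμ-TCL1 replicate 2 in DMSO and Eμ-TCL1 replicate 1 in ibrutinib had summed myeloid markers of 30163.1 and 21369, against 288.6 to 1663.3 in the other 13 libraries, and B-cell markers of 610.7 and 514.9. Their 6 erythroid markers summed to 4171.4 and 4309.2, against at most 78.7 elsewhere. The T-cell sum was 2344.5 and 2747.6 in the DMSO libraries of Eμ-TCL1;p53R172H/+ replicates 1 and 2, and 1524.3 and 1000.3 in the ibrutinib libraries of replicates 1 and 3, and in these 4 it exceeded the B-cell sum, although the labels call all samples B-cells. That leaves 9 libraries in which B-cell markers were above both other lists, 5 in DMSO and 4 in ibrutinib. In DMSO these B-cell-rich libraries were Eμ-TCL1 replicates 3 and 4 and Eμ-TCL1;p53R172H/+ replicates 3, 4 and 5. In ibrutinib they were Eμ-TCL1 replicates 3 and 4 and Eμ-TCL1;p53R172H/+ replicates 4 and 5. The latter 2 were still mixed, with B-cell sums of 1552.9 and 1315.2, T-cell sums of 521.6 and 664.5 and myeloid sums of 1018.4 and 729.3. In the 2 Eμ-TCL1 libraries the B-cell sums were 3621.1 and 2766.7, with T-cell sums of at most 383.5 and myeloid sums of at most 651.6. Values from the B-cell-rich libraries in ibrutinib therefore do not compare genotypes at matched cell content. Xist was above 100 in all Eμ-TCL1 libraries but in only 2 of 5 and 1 of 4 Eμ-TCL1;p53R172H/+ libraries, so sex and genotype are in part confounded. Eμ-TCL1;p53R172H/+ replicate 3 had Xist at 1491.3 in DMSO and at 1 in ibrutinib, so these 2 libraries come from different mice or 1 of them carries a wrong label, and the labels do not settle which. Leaving out the first gave a median log2 genotype difference over the members of 0.28 in DMSO, against 0.34 with it, and leaving out the second gave 0.12 in ibrutinib, as with it. In bulk RNA, fewer cells of a type and less RNA per cell cannot be told apart.

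Promoter letters are shown for Srsf6, the member whose genotypes did not overlap in either table, and Srsf9, the member with the lowest p in ibrutinib. The window of Sf3a2, which had the lowest p in DMSO, reaches into an annotated exon and is not shown. The sequences are the 150 bases before the RefSeq start in GRCm38.p6, on the plus strand at chr2:162931358-162931507 and chr5:115327027-115327176, and neither window reaches an annotated exon. Srsf6 (ENSMUSG00000016921) spans 162931528 to 162937121 on chromosome 2 and Srsf9 (ENSMUSG00000029538) spans 115327177 to 115333080 on chromosome 5 in GENCODE M21 (GRCm38), both on the plus strand. Capitals mark letters of the motifs searched on both strands.
Srsf6 promoter: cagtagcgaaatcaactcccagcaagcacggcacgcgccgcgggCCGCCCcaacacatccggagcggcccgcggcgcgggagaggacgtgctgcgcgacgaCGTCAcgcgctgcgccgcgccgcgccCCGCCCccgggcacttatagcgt
Srsf9 promoter: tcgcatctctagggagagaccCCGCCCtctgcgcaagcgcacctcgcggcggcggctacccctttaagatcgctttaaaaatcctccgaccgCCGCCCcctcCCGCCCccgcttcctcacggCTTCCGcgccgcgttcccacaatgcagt
In Srsf6 the capitals are 2 GC boxes (GGGCGG, here read on the other strand) and 1 short form of the cAMP response element (TGACG, also on the other strand). In Srsf9 they are 3 GC boxes and 1 core of the ETS family (CGGAAG), all on the other strand. Of the 51 members, 45 were matched by symbol in the RefSeq table, with 59 promoters. Within 250 bases before the start, the ETS core stood in 50.8% of the members' promoters, against 13.6% of all 32851 promoters and 24.1% of the 12445 promoters of protein-coding genes in both tables. TGACG stood in 39.0%, against 17.8% and 25.8%, and the GC box in 71.2%, against 32.7% and 55.7%. The CCAAT box (CCAAT) was present in 44.1%, against 33.8% and 35.0%, the E-box CACGTG in 8.47%, against 6.02% and 8.02%, and TATAAA in 8.47%, against 12.4% and 6.43%. None of the 6 motifs contains another, and a match describes letters only.

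The members were expressed broadly. Except for Srsf12, an SR protein gene between 0 and 0.7 in the 15 libraries and thus the member nearest to the filter, each reached 0.5 normalized CPM in every library. Divided by the summed exon length of the gene in GENCODE M21, the highest levels in DMSO (mean of both genotypes) were those of Hnrnph1 at 69.9 normalized CPM per kb, Hnrnpab at 65.2, Srsf1 at 64.2 and Srsf2 at 61.3, followed by Hnrnpa2b1, Hnrnpu, Sf3b1 and Snrpb at 54.0 to 54.8. These 8 cannot be ordered, because their libraries ranged over far more than the gaps between them, and in Eμ-TCL1;p53R172H/+ alone Hnrnpab, at 73.6 per kb, was above Hnrnph1, at 68.3. Hnrnpll was the lowest after Srsf12, at 1.58 per kb. In ibrutinib the highest means were those of Hnrnph1 at 48.4 per kb, Hnrnpa2b1 at 44.3, Srsf2 at 42.4 and Sf3b1 at 40.3, again with library ranges that overlapped. By subfamily, the median level per kb in DMSO was 32.4 for Hnrnp, 27.6 for Srsf, 17.3 for Sf3 and 8.26 for Snrp genes, and in ibrutinib it was 21.1, 19.2, 10.1 and 3.74. The exon length includes exons of retained-intron transcripts, which understates the level of genes with many of them. Of the members, 10 overlap another gene on their own strand and 20 one on the other strand. Strandedness of the libraries and the handling of reads with several matches are not given in the sources used here, so values of those genes, and of genes with processed copies such as Hnrnpa1, are less certain.

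**Figure D1:**
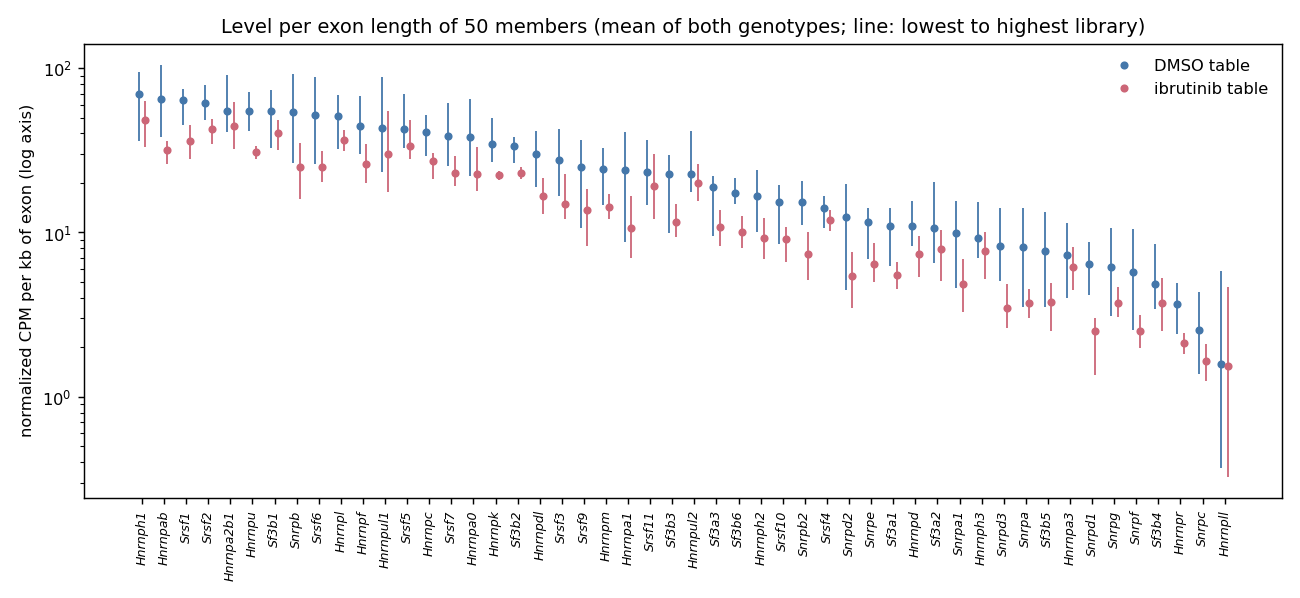
Level of 50 members (Srsf12 left out) in normalized CPM per kb of exon on a log axis; points are means of both genotypes in the DMSO and ibrutinib tables and lines run from the lowest to the highest library. Members are drawn by their DMSO mean, the lines of neighbours overlap widely, Snrp genes lie mostly to the right, and Hnrnpll has the longest lines.

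Summed over the 51 members, normalized CPM in DMSO had a mean of 6443 ± 1346 (SD, n = 3) for Eμ-TCL1, against 7907 ± 892 (SD, n = 5) for Eμ-TCL1;p53R172H/+. The Eμ-TCL1 libraries were at 4949.5 in replicate 2, 7561 in replicate 3 and between these in replicate 4, and the Eμ-TCL1;p53R172H/+ libraries ran from 6639.4 to 9133.8, so the genotypes overlapped. In ibrutinib the sums were 4480 ± 486 (SD, n = 3) and 4709 ± 68.7 (SD, n = 4), and the range of Eμ-TCL1, 3962 to 4924.5, enclosed that of Eμ-TCL1;p53R172H/+, 4617.5 to 4783.7. The small spread of the latter depends on the scaling. With libraries scaled to equal totals it was 4864 ± 1407 (SD, n = 4). In these Eμ-TCL1;p53R172H/+ libraries the mitochondrial ribosomal RNA mt-Rnr2 ran from 36217.3 in replicate 1 to 472072.1 in replicate 5. Its part in the sums was not tested. The lowest sum in each table belonged to the myeloid-rich Eμ-TCL1 library, and their part in the genotype difference of the sums was not tested. Hnrnp genes made up 51.8% to 54.1% of the members' sum as group means, Srsf genes 23.2% to 24.4% and Sf3 genes 17.9% to 19.6%. Snrp genes made up 4.30% and 4.73% in the DMSO groups and 3.40% and 3.44% in the ibrutinib groups, and the libraries of both tables overlapped in this share.

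**Figure D2:**
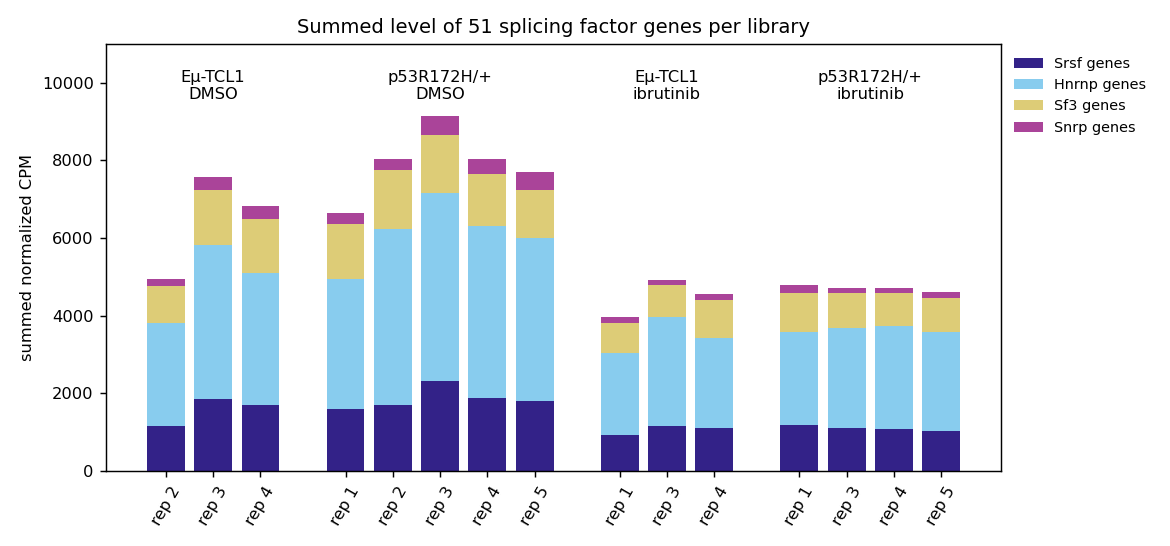
Summed normalized CPM of the 51 splicing factor genes per library, stacked by prefix (bars start at 0), for both genotypes in DMSO and ibrutinib. Eμ-TCL1 replicate 2 in DMSO, at 4949.5, and Eμ-TCL1 replicate 1 in ibrutinib, at 3962, are the lowest of their tables; the tables were scaled separately.

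The question asked of the DMSO table was which splicing factor genes differ with mutant p53 in cultured leukemia cells. In DMSO, 48 of the 51 members had a higher mean log2 level in Eμ-TCL1;p53R172H/+ and 3 a lower one, but no single member passed the test. Of all 16470 genes tested, 8777 were higher and 7693 lower. With limma run on all 16470 genes (Benjamini-Hochberg adjustment, threshold 0.05), 0 members were called, where the background was 0.0121% of all genes. At an unadjusted p under 0.05, 4 members (7.84%) were higher, against a background of 3.52%, and 0 were lower, against 4.65%. In either direction together the background was 8.17%. Without Eμ-TCL1 replicate 2, only 1 member (1.96%) had such a p in either direction, against 8.82% of all genes. The genotypes did not overlap in 4 members, all higher in Eμ-TCL1;p53R172H/+ (7.84%, background 3.52%), and in 0 members that were lower (background 2.93%). The median log2 difference, Eμ-TCL1;p53R172H/+ minus Eμ-TCL1 on the log2(normalized CPM + 1) scale, was 0.34 over the members, against 0.04 over all genes tested. Over 9879 protein-coding genes with a mean of at least 5 it was 0.096, with 5809 of them higher. By subfamily the medians were 0.38 for Snrp, 0.36 for Hnrnp, 0.29 for Sf3 and 0.11 for Srsf genes, and all 11 Snrp and all 9 Sf3 genes had positive differences. Of the 51 members, 36 had their lowest DMSO value in the myeloid-rich Eμ-TCL1 replicate 2. Without that library the median over the members was 0.11, and in the 5 B-cell-rich libraries it was 0.25.

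**Figure D3:**
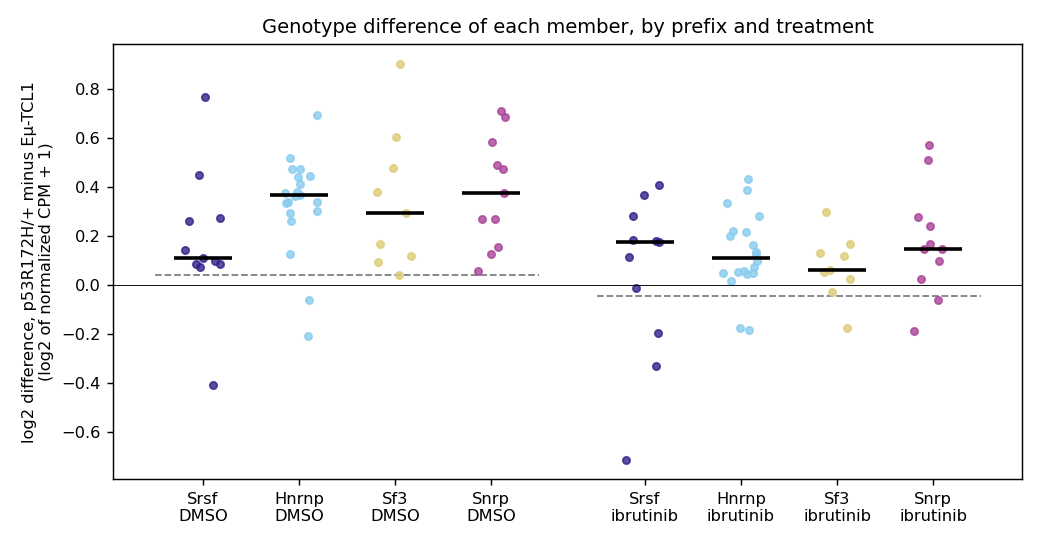
Log2 difference of each member, Eμ-TCL1;p53R172H/+ minus Eμ-TCL1, by prefix and treatment (points), with the median of each prefix (black bars) and of all genes tested (dashed lines, 0.04 in DMSO and -0.05 in ibrutinib). In DMSO 48 of 51 points lie above 0 and in ibrutinib 41 of 51. Of all genes tested, 8777 of 16470 and 7491 of 16428 had a difference above 0.

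Within the U2 particle, the largest difference was that of Sf3a2, a subunit of SF3A. Its normalized CPM in Eμ-TCL1 was 17.4, 21.7 and 17.8 in replicates 2, 3 and 4, and in Eμ-TCL1;p53R172H/+ it was 23.3, 31.4, 38.6, 40.2 and 54 in replicates 1 to 5. Every Eμ-TCL1;p53R172H/+ library lay above every Eμ-TCL1 library, and the lowest of them was the T-cell-rich replicate 1. As a percent of the members' sum in the same library, which does not depend on scaling, the ranges just overlapped, at 0.261% to 0.352% and 0.351% to 0.701%. The mean was 19.0 ± 2.38 (SD, n = 3) against 37.5 ± 11.4 (SD, n = 5), which gave a log2 difference of 0.90 (standard error 0.28, limma adjusted p = 0.503). In the B-cell-rich libraries alone the difference was 1.12 (limma adjusted p = 0.129), and with each library left out in turn it stayed between 0.76 and 1.06. Sample quality weights raised it to 1.09 (limma adjusted p = 0.0237), the only setting in which a member was called, while 4.88% of all genes were called with those weights. Sf3a2 (ENSMUSG00000020211) lies on chromosome 10 from 80798198 to 80804924, and the gene Plekhj1 overlaps it on the other strand.

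Sf3b4, an SF3B subunit that contacts pre-mRNA next to the branch point, was likewise separated by genotype. It was at 7.4, 8.4 and 8.3 in Eμ-TCL1 replicates 2, 3 and 4 and at 9, 11.3, 13.8, 12.8 and 18.3 in Eμ-TCL1;p53R172H/+ replicates 1 to 5, and these ranges did not overlap, although the percents of the members' sum did, at 0.111% to 0.150% and 0.136% to 0.238%. The log2 difference was 0.60 (standard error 0.28, limma adjusted p = 0.623). Sf3b5, a small SF3B subunit, had a difference of 0.47 (limma adjusted p = 0.683) with overlapping groups, and one of 0.11 without Eμ-TCL1 replicate 2. Sf3b1, the scaffold of SF3B and the member mutated in human leukemia, showed no steady direction. Its values were 519.1, 693.7 and 593.2 in Eμ-TCL1 and 722.1, 836.8, 679, 573.9 and 369.9 in Eμ-TCL1;p53R172H/+, the last in replicate 5, so 1 group enclosed the other. The log2 difference of 0.04 (standard error 0.32, limma adjusted p = 0.976) was -0.29 in the B-cell-rich libraries. The other 5 Sf3 genes, Sf3a1, Sf3a3, Sf3b2, Sf3b3 and Sf3b6, had differences from 0.09 to 0.38 with overlap. These are transcript levels and carry no information on mutations of Sf3b1.

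Among the proteins of the U1 and U2 particles and the Sm ring, 2 genes stood first by p. Snrpd3, a member of the Sm ring, was at 17.4, 21.8 and 23.8 in Eμ-TCL1 replicates 2, 3 and 4 and at 21.2, 48.8, 38.6, 36 and 34.5 in Eμ-TCL1;p53R172H/+ replicates 1 to 5. Only Eμ-TCL1;p53R172H/+ replicate 1 fell into the range of Eμ-TCL1, and the log2 difference was 0.71 (standard error 0.28, limma adjusted p = 0.591). Snrpa1, a U2 particle protein, was at 14.6, 28.8 and 30 in Eμ-TCL1 and at 33.5, 29.5, 41.1, 49 and 40.1 in Eμ-TCL1;p53R172H/+, with replicate 2 of the latter just below the highest Eμ-TCL1 library. Its log2 difference was 0.68 (standard error 0.29, limma adjusted p = 0.608) and 0.36 without Eμ-TCL1 replicate 2. Snrpb2, the partner of Snrpa1 on the U2 RNA, followed with 0.27 (limma adjusted p = 0.661), which was 0.12 without the same library. The other Sm ring genes, Snrpb, Snrpd1, Snrpd2, Snrpe, Snrpf and Snrpg, had differences from 0.06 to 0.58 with overlapping groups. The U1 particle genes Snrpa and Snrpc overlapped too, with differences of 0.49 and 0.38.

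Of the SR protein genes, Srsf6 differed most. In Eμ-TCL1 it was at 125.8, 215.2 and 204.9 in replicates 2, 3 and 4, and in Eμ-TCL1;p53R172H/+ at 221.1, 233.7, 427.1, 286 and 399.4 in replicates 1 to 5. The groups were separated by the small gap between 215.2 and 221.1. The mean was 182 ± 48.9 (SD, n = 3) against 313 ± 94.8 (SD, n = 5), which gave a log2 difference of 0.77 (standard error 0.31, limma adjusted p = 0.593), and without Eμ-TCL1 replicate 2 it was 0.52. As a percent of the members' sum, Srsf6 was at 2.54% to 3.01% in Eμ-TCL1 and 2.91% to 5.18% in Eμ-TCL1;p53R172H/+, so these ranges overlapped. Srsf5, a further SR protein gene, had a log2 difference of 0.45 (limma adjusted p = 0.645) and Srsf12 one of 0.27 (limma adjusted p = 0.688) at a level near 0, the latter being 0.16 without Eμ-TCL1;p53R172H/+ replicate 2. Srsf12 was at most 0.1 in Eμ-TCL1 and reached 0.7 in Eμ-TCL1;p53R172H/+, and in ibrutinib these maxima were 0.2 and 0.5. It may thus have passed the filter on low values only through the latter genotype, which favours a positive difference in advance. Its difference carries no weight, although it is among the 48 members higher in DMSO and the 41 in ibrutinib. The 8 other Srsf genes lay between -0.41, for Srsf9, and 0.26, for Srsf11.

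Among the Hnrnp genes, Hnrnpf, which binds G-rich elements, was at 91.6, 128.8 and 110.8 in Eμ-TCL1 and at 146.9, 131.4, 206.5, 133.2 and 180.4 in Eμ-TCL1;p53R172H/+, without overlap. Its log2 difference was 0.52 (standard error 0.23, limma adjusted p = 0.613), and as a percent of the members' sum the genotypes overlapped, at 1.63% to 1.85% and 1.64% to 2.34%. Its relative Hnrnph3 had a difference of 0.44 (limma adjusted p = 0.645), and Hnrnpc, which binds uridine tracts, one of 0.37 (limma adjusted p = 0.645). In the B-cell-rich libraries that of Hnrnph3 was 0.18, and without Eμ-TCL1 replicate 2 that of Hnrnpc was 0.24. Only Hnrnph1, at -0.06, and Hnrnpll, at -0.21, had negative differences among the 20, and the other 15 lay between 0.13, for Hnrnph2, and 0.69, for Hnrnpul1. A pair of genes lies on the other strand of Hnrnpf.

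The same question was asked in ibrutinib. There 41 members had a higher mean log2 level in Eμ-TCL1;p53R172H/+ and 10 a lower one, with a median log2 difference of 0.12, against -0.05 over all 16428 genes. Of all genes, 7491 were higher and 8937 lower. Over 9457 protein-coding genes with a mean of at least 5 the median was -0.043, with 4319 of them higher. With limma, 0 members passed after adjustment, and the background was 0%. At an unadjusted p under 0.05, 3 members (5.88%) were higher, against 5.69% of all genes, and 1 (1.96%) was lower, against 6.32%. The genotypes did not overlap in 4 members that were higher (7.84%, background 6.68%) and in 1 that was lower (1.96%, background 5.97%). The shares of higher members are near the background, and those of lower members, 1 member each, are below it. The median was 0.17 for Srsf, 0.15 for Snrp, 0.11 for Hnrnp and 0.06 for Sf3 genes, and in the 4 B-cell-rich libraries the median over the members was 0.04. The differences of the 51 members ran from -0.71 to 0.57. In both tables alike, 40 members lay above 0 and 2 below, and the share of all genes doing so was not computed. These counts are not independent between tables. For 5 of the 6 replicate numbers that a genotype has in both, the ibrutinib library was most like the DMSO library of its own number (correlations of deviations from the group means from 0.75 to 0.84 over genes), the exception being Eμ-TCL1;p53R172H/+ replicate 3. The myeloid-rich Eμ-TCL1 libraries, replicate 1 in ibrutinib and replicate 2 in DMSO, were likewise most alike (0.894).

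The lowest p among members in ibrutinib belonged to Srsf9, an SR protein with a short serine-arginine domain. It was at 24.1, 30.6 and 30.2 in Eμ-TCL1 replicates 1, 3 and 4 and at 14.7, 13.6, 22 and 17.9 in Eμ-TCL1;p53R172H/+ replicates 1, 3, 4 and 5. All Eμ-TCL1 libraries lay higher, with means of 28.3 ± 3.64 (SD, n = 3) and 17.1 ± 3.77 (SD, n = 4). The log2 difference was -0.71 (standard error 0.21, limma adjusted p = 0.313), and it was -0.59 in the B-cell-rich libraries and between -0.84 and -0.62 with each library left out in turn. As a percent of the members' sum, Srsf9 was at 0.608% to 0.663% in Eμ-TCL1 and 0.288% to 0.467% in Eμ-TCL1;p53R172H/+. In DMSO, Srsf9 was at 25.9, 60.5 and 54 in Eμ-TCL1 and at 21.3, 17.6, 41.8, 54.2 and 44.6 in Eμ-TCL1;p53R172H/+, with a log2 difference of -0.41 (limma adjusted p = 0.754). The 3 lowest of these were the myeloid-rich library and the 2 T-cell-rich libraries, and their part in the difference was not tested.

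Srsf6 was the 1 member whose genotypes overlapped in neither table. The share of all genes separated in both was not computed. Most libraries were alike in pairs between the tables, so the separation in ibrutinib is not an independent observation. In ibrutinib Srsf6 was at 97.7, 107.3 and 109.8 in Eμ-TCL1 and at 150.4, 133.2, 126.1 and 133 in Eμ-TCL1;p53R172H/+. The means of 105 ± 6.39 (SD, n = 3) and 136 ± 10.4 (SD, n = 4) gave a log2 difference of 0.37 (standard error 0.14, limma adjusted p = 0.375). The percent of the members' sum, at 2.18% to 2.47% against 2.68% to 3.14%, did not overlap either. Srsf5 was at 116.5, 112.7 and 112.1 against 193, 154.4, 145.1 and 121.1, a difference of 0.41 (standard error 0.19, limma adjusted p = 0.437). Its values were nearly equal in the 3 Eμ-TCL1 libraries and spread widely among the 4 others.

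Snrpa1 and Snrpd3, which headed the Snrp genes in DMSO, did so in ibrutinib as well, which is not an independent observation because most libraries were alike in pairs between the tables. Snrpa1 was at 10.4, 12.1 and 14 in Eμ-TCL1 and at 21.9, 16.7, 15.4 and 20.4 in Eμ-TCL1;p53R172H/+, with a log2 difference of 0.57 (standard error 0.20, limma adjusted p = 0.348). Snrpd3 was at 10.9, 9.2 and 9 against 14.2, 16.7, 12.4 and 13.8, with a difference of 0.51 (standard error 0.19, limma adjusted p = 0.357). Neither gene overlapped between genotypes. In the B-cell-rich libraries the differences in ibrutinib were 0.42 (limma adjusted p = 0.507) for Snrpa1 and 0.48 (limma adjusted p = 0.414) for Snrpd3. As a percent of the members' sum, Snrpa1 stayed apart, at 0.246% to 0.307% and 0.327% to 0.458%, whereas Snrpd3 overlapped, at 0.187% to 0.275% and 0.263% to 0.354%. Snrpd1, a further Sm ring gene, had a difference of 0.28 (limma adjusted p = 0.662) with overlap, which ran from 0.017, leaving out Eμ-TCL1 replicate 3, to 0.47, leaving out replicate 1 of that genotype.

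The remaining members named in ibrutinib overlapped between genotypes. The log2 differences of Hnrnpa0, Hnrnpf and Hnrnpdl were 0.39 (limma adjusted p = 0.473), 0.33 (limma adjusted p = 0.519) and 0.28 (limma adjusted p = 0.561), and that of Hnrnpdl was 0.18 without Eμ-TCL1 replicate 1. Sf3a2, which led in DMSO, was at 20.3, 23.4 and 13.5 against 19.3, 24.2, 22.1 and 27.5, with a difference of 0.30 (standard error 0.23, limma adjusted p = 0.601). Leaving out Eμ-TCL1 replicate 4 gave 0.080, and leaving out replicate 3 of that genotype gave 0.46. Sf3a1 and Sf3a3, the other SF3A subunits, had differences of -0.18 (limma adjusted p = 0.664) and 0.16 (limma adjusted p = 0.709). With a library left out these ran from -0.29 to -0.12, the former without Eμ-TCL1;p53R172H/+ replicate 1 and the latter without replicate 4, and from 0.028, without Eμ-TCL1 replicate 1, to 0.29, without Eμ-TCL1 replicate 4. Sf3b1 was at 363.2, 439.6 and 511.6 against 546.6, 498.6, 450.9 and 414.7, a difference of 0.13 (standard error 0.21, limma adjusted p = 0.801).

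**Figure D4:**
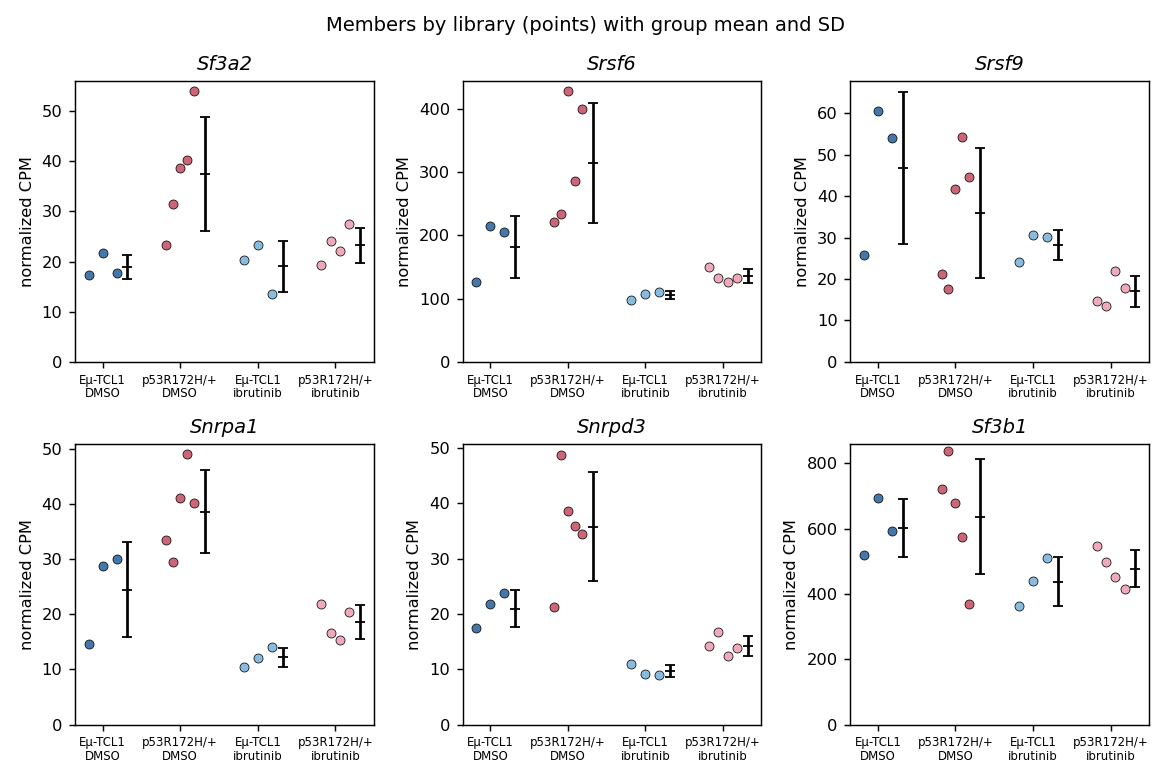
Normalized CPM of Sf3a2, Srsf6, Srsf9, Snrpa1, Snrpd3 and Sf3b1 per library (points, in order of replicate number) with the group mean and SD (bars), each axis from 0. Srsf6 is separated by genotype in both tables, Sf3a2 only in DMSO, Srsf9, Snrpa1 and Snrpd3 only in ibrutinib, and Sf3b1 in neither.

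Whether the genotype difference changed with treatment was tested as an interaction over the 15 libraries. Of the 51 members, 0 passed after adjustment (background 0%) and 0 had an unadjusted p under 0.05 (background 0.523% of 15869 genes). This fit took the libraries as independent, although most same-numbered DMSO and ibrutinib libraries of a genotype were alike. With libraries blocked by genotype and replicate number, 3 members (5.88%) had an unadjusted p under 0.05, against 4.98% of all genes. This block joins the 2 libraries of Eμ-TCL1;p53R172H/+ replicate 3, which were not alike (-0.109). It leaves apart the 2 myeloid-rich Eμ-TCL1 libraries, which were (0.894), so it covers the dependence only in part. Again 0 members passed after adjustment. Without the block, the median interaction, the log2 genotype difference in ibrutinib minus that in DMSO, was -0.18 over the members and -0.07 over all genes. Above 0 were 11 members and below 0 were 40, against 6490 and 9379 of all genes. The lowest p belonged to Sf3b4 at -0.64 (standard error 0.37) and Sf3a2 at -0.60 (standard error 0.36), both with a limma adjusted p = 1. Without Eμ-TCL1 replicate 3 in ibrutinib that of Sf3b4 was -0.40. Of the positive ones, Hnrnpll at 0.64 (standard error 1.25) and Snrpd1 at 0.15 (standard error 0.40) also had a limma adjusted p = 1.

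Levels in DMSO and ibrutinib are given side by side without a test, because each table has its own scale. The median over genes in both tables was itself lower in ibrutinib, at 9.8 to 12 against 13.4 to 14.5 per library, and the median member was at 45.2 to 54.3 against 67.3 to 106.1. A count of 9 members (17.6%) lay in every ibrutinib library below every DMSO library, against 2.86% of all genes, and 0 members lay above, against 0.0126%. The median member lay well above the median gene in both tables, and the share among genes of similar level was not computed. The 9 were Srsf1, Hnrnpab, Hnrnpk, Hnrnpu, Sf3b2, Sf3b6, Snrpb2, Snrpd1 and Snrpd3. Hnrnpu, an abundant nuclear scaffold protein gene, was at 479.1 to 829.5 in DMSO and at 326.5 to 392 in ibrutinib. Snrpd1 was at 8.5 to 18 and at 2.8 to 6.2, and Srsf1, the founding SR protein, at 258.2 to 428.9 and 160.5 to 257.6. As a percent of the members' sum, which is free of the scale, each of the 51 overlapped between the tables. Hnrnpu, for instance, was at 8.21% to 9.90% and 7.08% to 8.30%. These percents add to 100 in each library, so they cannot show whether the members as a set changed. As a percent of the library total, the members were at 0.432% to 0.932% in DMSO and 0.340% to 0.632% in ibrutinib, with overlap.

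Hnrnpll and Srsf5 were highest in each table where a marker list was highest, whereas Hnrnpul1 did not follow the B-cell sum throughout. Hnrnpll, known for regulating the splicing of CD45 in activated lymphocytes, was at 67.6 in the myeloid-rich Eμ-TCL1 replicate 2 in DMSO and 54.4 in the myeloid-rich Eμ-TCL1 replicate 1 in ibrutinib. In the other 4 Eμ-TCL1 libraries it was at 3.8 to 5.3, and in Eμ-TCL1;p53R172H/+ at 4.7 to 16.3 in DMSO and 10.8 to 18.3 in ibrutinib. Without Eμ-TCL1 replicate 2 in DMSO, its interaction turned from 0.64 to -0.55, and without Eμ-TCL1 replicate 1 in ibrutinib it was 1.77. Srsf5 was highest in the 2 libraries with the most T-cell markers, at 263.3 and 276.3, and at 130.8 to 172.1 in the 6 other DMSO libraries. In ibrutinib its highest value, 193, was again that of the library with the most T-cell markers, and in the B-cell-rich libraries its log2 genotype difference was 0.12 in DMSO and 0.24 in ibrutinib. Hnrnpul1, which also has a role at DNA breaks, was lowest in DMSO in the 1 myeloid-rich library, at 202.1, and in the T-cell-rich replicate 1, at 217.5, but the T-cell-rich replicate 2, at 307.3, lay above a B-cell-rich library. It was highest in the B-cell-rich Eμ-TCL1;p53R172H/+ replicates 5, 3 and 4, at 762.3, 616.8 and 467.8, against 378.1 and 245.1 in the B-cell-rich Eμ-TCL1 replicates 3 and 4. In ibrutinib Hnrnpul1 was highest, at 473.4, in Eμ-TCL1;p53R172H/+ replicate 5, whose B-cell sum was 1315.2. It was at 286.7 in Eμ-TCL1 replicate 3, whose B-cell sum was 3621.1. Its log2 genotype difference was 0.69 (standard error 0.44, limma adjusted p = 0.645) in DMSO and 0.04 (standard error 0.40, limma adjusted p = 0.966) in ibrutinib. These 3 members were chosen after their values were seen. Proliferation markers, 12 genes that mark dividing cells and no cell type, summed to 578.9 to 1745.2 in Eμ-TCL1 and 309.6 to 819.5 in Eμ-TCL1;p53R172H/+ in DMSO, and to 253.5 to 1181.4 and 141.4 to 189.7 in ibrutinib. The part of these cells in the genotype differences was not tested.

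**Figure D5:**
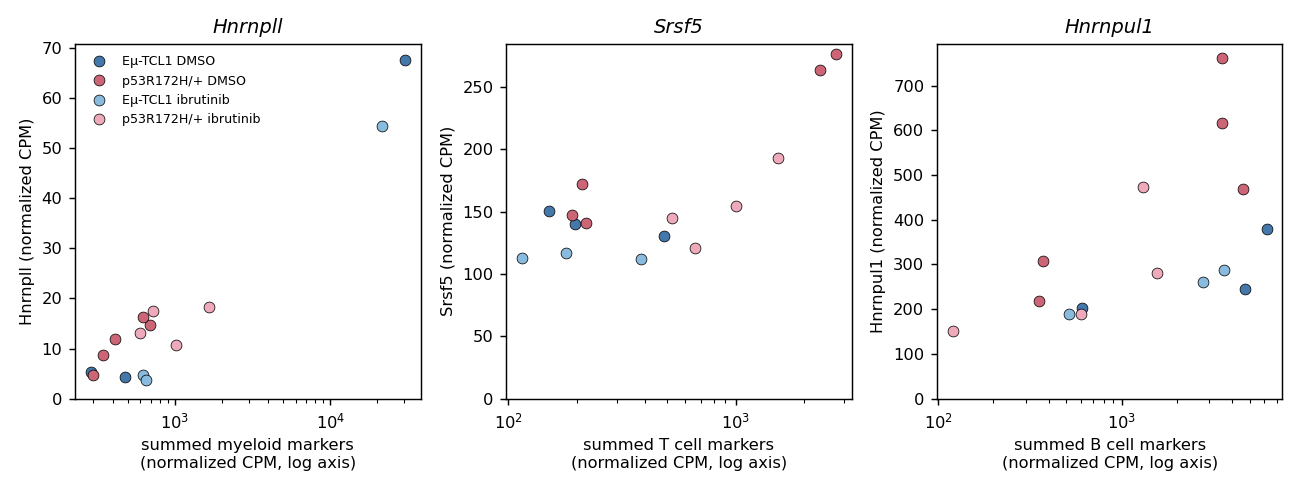
Normalized CPM of Hnrnpll, Srsf5 and Hnrnpul1 (vertical axes from 0) against the summed myeloid, T-cell and B-cell markers of each library (log axes), coloured by group. The 2 myeloid-rich libraries hold the Hnrnpll values of 67.6 and 54.4, and the 2 libraries with most T-cell markers the Srsf5 values of 263.3 and 276.3.

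Other genes of the splicing machinery and of related RNA processing, in 11 lists of 195 genes outside the 4 prefixes, were read in the same fits. The lists include LSm proteins and the exon junction complex with nonsense-mediated decay, so not every listed gene acts in splicing. In DMSO 187 were found and 0 passed after adjustment, with 14 (7.49%) higher and 2 (1.07%) lower in Eμ-TCL1;p53R172H/+ at an unadjusted p under 0.05, against 3.52% and 4.65% of all genes. In ibrutinib 186 were found and 0 passed, with 8 (4.30%) higher and 4 (2.15%) lower, against 5.69% and 6.32% of all genes. The median log2 difference was 0.27 in DMSO and 0.12 in ibrutinib. The list medians in DMSO ran from 0.14 for tissue-regulated splicing regulators to 0.40 for U1 and U2 factors outside the prefixes. In DMSO the genotypes did not overlap in 12 higher and 1 lower of the listed genes (background 3.52% and 2.93%). In ibrutinib they did not overlap in 13 and 3 (background 6.68% and 5.97%). The share of all genes separated in both tables was not computed, and the tables are not independent.

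Of the genes that recognize the 3′ splice site with the members above, U2af1l4, a relative of the small U2AF subunit, had the lowest p of its list in both tables. In DMSO it had a mean of 17.9 ± 3.27 (SD, n = 3) for Eμ-TCL1 against 29.8 ± 2.11 (SD, n = 5), a log2 difference of 0.72 (limma adjusted p = 0.442), and had one of 0.55 (limma adjusted p = 0.378) in ibrutinib, without overlap in either. Snrnp25, a protein of the minor spliceosome, was lower in Eμ-TCL1;p53R172H/+, with a log2 difference of -0.97 (limma adjusted p = 0.573) in DMSO and -1.03 (limma adjusted p = 0.238) in ibrutinib. In ibrutinib its levels of 6.8 to 10.8 in Eμ-TCL1 and 2.8 to 4.1 in Eμ-TCL1;p53R172H/+ did not overlap. In DMSO, without Eμ-TCL1 replicate 4, its difference was -0.61.

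Srpk1, a kinase that phosphorylates SR proteins, was at 79 to 115.4 in Eμ-TCL1 and 139.9 to 306.9 in Eμ-TCL1;p53R172H/+ in ibrutinib, a log2 difference of 1.08 (limma adjusted p = 0.286), and had one of 0.83 (limma adjusted p = 0.645) in DMSO. In the B-cell-rich libraries these were 0.55 and 0.05. Ptbp3, a repressor of exon inclusion of the polypyrimidine tract binding family, was lower without overlap in both tables, at 538.8 to 744.1 against 183.7 to 478.5 in DMSO and at 511.2 to 654.2 against 256.9 to 433.6 in ibrutinib. Its log2 differences were -0.84 (limma adjusted p = 0.601) and -0.78 (limma adjusted p = 0.330). Prmt5, which methylates Sm proteins, had a difference of 0.82 (limma adjusted p = 0.306) in ibrutinib without overlap, and one of 0.48 in the B-cell-rich libraries.

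In the remaining lists the genes with the lowest p in DMSO, with their log2 differences in parentheses, were Prpf6 (0.69), Aqr (0.62), Lsm14a (0.71), Gemin5 (0.78), Scaf1 (0.61), Celf1 (0.53) and Smg5 (0.56), with limma adjusted p from 0.503 to 0.601. Gemin5 was at 0.48 without Eμ-TCL1 replicate 2, and Prpf6 at 0.39 in the B-cell-rich libraries. In ibrutinib they were Sart1 (0.35), Ppil1 (-1.37), Lsm5 (0.55), Bclaf1 (0.36), Mbnl3 (-0.89) and Nxf1 (0.48), with limma adjusted p from 0.321 to 0.522. Lsm14a and Lsm5 came from the list of LSm proteins, and Smg5 and Nxf1 from that of the exon junction complex and nonsense-mediated decay. Without the myeloid-rich Eμ-TCL1 replicate 1, Mbnl3 was at -0.46, Bclaf1 at 0.20 and Nxf1 at 0.32, and Sart1 was at 0.18 in the B-cell-rich libraries.

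The annotation of the members bears on what a gene-level value counts. In GENCODE M21, 24 of the 51 members (47.1%) have a transcript marked for nonsense-mediated decay, against 28.3% of 12877 protein-coding genes in both tables, and 38 (74.5%) have a retained-intron transcript, against 57.8%. By subfamily, decay transcripts are annotated for 9 of 11 Srsf genes (81.8%), 10 of 20 Hnrnp genes, 36.4% of Snrp and 11.1% of Sf3 genes. The deposited values hold 1 number per gene and do not separate productive from unproductive transcripts, so a difference in splicing of the members themselves was not measured.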

How the data were processed

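RNA-seq libraries of cultured splenic B-cells were analysed in 4 groups of genotype and treatment, taken from the sample labels. Per the methods of the study and the submitters' processing notes, the authors aligned reads with TopHat2 2.0.12, used SAMtools 0.1.19, counted reads per gene with HTSeq on the GENCODE M2 annotation of GRCm38, removed genes with low values and applied edgeR normalization. The deposited values are a signal in normalized CPM, scaled separately in each table by the authors and rounded to 0.1. Whole reads could not be recovered, so depth is unknown and counting error could not be computed.

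Within a table, the comparison of genotypes used limma (version 3.58.1, R version 4.3.3), with lmFit followed by trended eBayes moderation of log2(value + 1), a scale that understates changes of low genes, with Benjamini-Hochberg adjustment over all genes of the table and a threshold of 0.05. The interaction was fitted over 15 libraries for genes in both tables. The fits were tested on simulated data. Nothing in the labels ties libraries to separate mice, so p-values measure only the spread between libraries. A p-value that misses the threshold does not show that groups were equal.

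Named were, in each table and subfamily, the 3 members with the lowest p, Sf3b1, for the interaction the 2 members with the lowest p per direction, and in each list of other splicing and RNA-processing genes the gene with the lowest p. The members and lists were chosen with earlier results of these data known. Gene models came from GENCODE M21 (GRCm38) by Ensembl ID, with 51 members matched, and promoters from RefSeq (GRCm38.p6). The results were recomputed with other pseudocounts (0.1 and 5), without genes whose mean was below 5, with 3 other scalings, sample quality weights, a replicate block and each library left out. Fits on B-cell-rich libraries and on libraries with Xist above 100 were added after the data were seen. Plots were made in Python 3.11.15 using matplotlib 3.10.9.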

Additional observations from a re-analysis of the deposited data

Results flagged for a closer look

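Of 36 groups of 4 or 5 libraries tested, 1 held a library far from the others, and about 1 in 20 such groups is expected to by chance. Sf3a3, an SF3A subunit, was at 38 in Eμ-TCL1;p53R172H/+ replicate 1 in ibrutinib and at 29.1 to 29.7 in the 3 other libraries of that group. That library had the highest summed T-cell markers of the ibrutinib table, at 1524.3, and the part of these cells in the Sf3a3 value was not tested.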

How the results depend on the processing

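Neither table nor the interaction gave a called member under any alternative, except for sample quality weights in DMSO, under which 1 member, Sf3a2, was called, while 4.88% of all genes were, and 12 members (23.5%) had an unadjusted p under 0.05, against 25.2% of all genes. Those weights also brought U2af1l4 (0.62), Lsm14a (0.94) and Snrnp25 (-1.42) past the threshold in DMSO. The cause was not tested. With each library left out in turn, the members' median log2 difference ranged from 0.11 to 0.45 in DMSO, lowest without Eμ-TCL1 replicate 2, and from 0.09 to 0.16 in ibrutinib, and 0 members were called each time. In DMSO, 4 members had an unadjusted p under 0.05 in the main fit. Only 1 (1.96%) had it without Eμ-TCL1 replicate 2 or Eμ-TCL1;p53R172H/+ replicates 3 or 5, against 8.82%, 6.05% and 6.09% of all genes. Without Eμ-TCL1;p53R172H/+ replicate 1 there were 5 (9.80%, against 6.39%). Equal column sums gave 1 (1.96%, against 6.4%) and median-of-ratios scaling 2 (3.92%, against 7.9%). Quantile normalization raised the members' median in ibrutinib to 0.25 and that of all genes from -0.05 to 0.07. With equal column sums the summed level in Eμ-TCL1;p53R172H/+ in ibrutinib was 4864 ± 1407 (SD, n = 4). No named difference passed the threshold in the main fits, and most were named for a low p, so the counts that follow do not measure robustness. Among 52 named differences and 934 alternatives, 911 kept their direction and side of the threshold and 19 changed direction. Most of these were of Sf3b1, which in DMSO was -0.10 with quantile normalization, -0.050 with median-of-ratios scaling, -0.12 with sample quality weights, between -0.074 and 0.22 with a library left out (negative without Eμ-TCL1 replicate 2, at -0.064, and Eμ-TCL1;p53R172H/+ replicates 1 and 2, at -0.020 and -0.074), -0.29 in B-cell-rich libraries and -0.25 in libraries with Xist above 100. In ibrutinib Sf3b1 was -0.0063 with sample quality weights, and -0.13 and -0.065 in those subsets. The Xist subset in ibrutinib holds only 1 Eμ-TCL1;p53R172H/+ library, replicate 5. The other reversals in ibrutinib were Sf3a3, at -0.020 with weights and -0.065 in B-cell-rich libraries, and Hnrnpdl, at -0.014 and -0.032 in the 2 subsets. Srsf12 in DMSO was -0.046 in libraries with Xist above 100. For the interaction, Hnrnpll ranged from -0.55 (without Eμ-TCL1 replicate 2 in DMSO) to 1.77, and Snrpd1 from -0.11 (without Eμ-TCL1 replicate 3 in ibrutinib) to 0.39, with -0.044 without Eμ-TCL1 replicate 4 in DMSO. Replicate numbers did not pair the genotypes (correlations of deviations from 0.05 to 0.28 in DMSO and from -0.20 to -0.05 in ibrutinib). With the replicate block, 0 members were called in DMSO, ibrutinib or the interaction. At an unadjusted p under 0.05 there were 5 (9.80%, against 5.89% of all genes), 1 (1.96%, against 9.07%) and 3 (5.88%, against 4.98%), and the medians were 0.38 and 0.16. The unknown depth, 3 to 5 libraries a group and their mixed cells limit what these comparisons can show.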
